A study of Mus musculus with 12 samples.

Results

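The Zfp symbols from Zfp600 to Zfp999 name mouse zinc finger genes, most of them of the KRAB zinc finger family. Members were the symbols in this numbered range with a value above 0 in all 6 libraries of the deposited expression table. This gave 154 of the 174 symbols in the range, out of 50900 symbols in the table. The range is one of nomenclature and not of function, and it also holds genes with few or no zinc fingers. The 20 symbols left out had at most 41 reads in any library. A symbol at 0 in 1 library was left out even if it was read in the others, as for Zfp629 with 24 and 41 reads in parental ESCs, 11 and 19 in ESCs with wild-type PRAMEL7, and 0 and 3 in ESCs with the truncated protein.

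In proteins of this family, each zinc finger is a small fold held by a pair of cysteines and a pair of histidines, and an array of such fingers reads a DNA sequence. Many members carry a KRAB domain in front of the array, which recruits TRIM28. TRIM28 brings in the histone methyltransferase SETDB1 and HP1 proteins, which mark the bound site with methylated histone H3 lysine 9 and silence it. In embryonic stem cells (ESCs) and the early embryo these repressors are known for silencing retroelements, and their genes lie in clusters that grew by duplication.

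RNA had been sequenced from E14 mouse ESCs grown in 15% serum with LIF, without feeder cells. Parental ESCs were compared with ESC + H/F-PRAMEL7 WT, which express HA/FLAG-tagged wild-type PRAMEL7, and with ESC + H/F-PRAMEL7 ΔN, which express the same protein without its N-terminus. That N-terminus binds CUL2, a scaffold of a ubiquitin ligase, and the comparison of both lines addresses what this interaction contributes. The sample labels give the deletion as 50 amino acids, whereas the study's text gives a shorter one. In both derived lines 1 transgene copy had been placed in the Rosa26 locus under the CAG promoter, a strong and broadly active one, and clones had been grown from single cells. The effect of the transgene and that of having become a separate clone therefore cannot be told apart. Each line had 2 libraries, made from separate culture dishes, and p-values measure the spread between dishes of one line. Chromatin immunoprecipitation samples of the series were not analysed here.

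The libraries held between 18256492 and 19857635 reads on genes. Values are given as CPM, reads on a gene scaled to a common library total, with the scaling of the authors between libraries kept. Pramel7 had 0.258 and 0.217 CPM in the parental libraries, 51.2 and 46.2 in ESC + H/F-PRAMEL7 WT and 397.7 and 430.9 in ESC + H/F-PRAMEL7 ΔN, so that the truncated form was the more abundant transcript and the derived lines differed in level as well as in form. The pluripotency genes Pou5f1, Sox2, Nanog, Zfp42 and Esrrb together had 2872.4 to 3097.5 CPM in parental ESCs, 2724.6 to 2821.8 in ESC + H/F-PRAMEL7 WT and 3202.5 to 3206.2 in ESC + H/F-PRAMEL7 ΔN. Of these 5, Nanog and Zfp42 were lower in ESC + H/F-PRAMEL7 WT than in parental ESCs, and Nanog, Zfp42 and Esrrb lower than in ESC + H/F-PRAMEL7 ΔN. Markers of primitive endoderm (5 genes) summed to 5.75 to 8.26 CPM in parental ESCs, 10.6 to 11.5 in ESC + H/F-PRAMEL7 WT and 8.76 to 9.74 in ESC + H/F-PRAMEL7 ΔN, with Gata4 higher in both derived lines and Sox7 in ESC + H/F-PRAMEL7 WT. Markers of trophectoderm (4 genes) summed to 4.77 to 5.42 CPM in parental ESCs, to 4.66 to 6.39 in ESC + H/F-PRAMEL7 WT and to 9.39 to 10.8 CPM in ESC + H/F-PRAMEL7 ΔN, where Eomes was higher. Markers of fibroblasts (4 genes), of which nearly all was Thy1, summed to 41.9 to 55.6 CPM in parental ESCs, 21.1 to 22.4 in ESC + H/F-PRAMEL7 WT, where Thy1 was lower, and 38.8 to 43.6 in ESC + H/F-PRAMEL7 ΔN. The part of these markers in the results was not tested. Medians of chromosomes 6 and 11 lay away from 0: the median log2 fold change of all tested genes on chromosome 6 was -0.26 in ESC + H/F-PRAMEL7 WT and 0.25 in ESC + H/F-PRAMEL7 ΔN over parental ESCs, and on chromosome 11 it was -0.36 and -0.33. On chromosome X the medians were -0.16 and -0.17, beside -0.08 and -0.06 for all genes tested. The Rosa26 locus is on chromosome 6.

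Most members encoded many fingers. The letters of a canonical finger (C-X2-C-X12-H-X3-H, in the coding sequence of the longest annotated transcript) were found in 140 of the 151 members with a coding sequence, or 92.7%, with a median of 11 fingers and a maximum of 33 in Zfp619. A KRAB A-box pattern was found in 96 of them, or 63.6%. Among the 182 genes with a coding sequence of the lower range Zfp1 to Zfp599 the same pattern was found in 42.9%, and among all protein-coding genes in 1.52%. A missing match says only that these letters were not in that transcript. The other 3 members, Zfp640, Zfp783 and Zfp939, were annotated as transcribed pseudogenes.

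Members were also neighbours. When members less than 500 kb apart were joined, 89 of 154 fell into 14 clusters of at least 3. The largest, with 17 members, lay on chromosome 4 from 145510759 to 147848366 (mm10), and another with 13 members on chromosome 17 from 21567008 to 22867134. Chromosome 7 alone held 34 members, 22 of them in 4 clusters. Duplication leaves similar sequences, and 33 members shared more than 10% of their 100-base windows with another annotated gene. Their reads could have been assigned to a copy or lost, and their values are uncertain.

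Expression in parental ESCs was low for most members. The median over 154 members of the mean level was 6.62 CPM in parental ESCs, 5.65 in ESC + H/F-PRAMEL7 WT and 6.77 in ESC + H/F-PRAMEL7 ΔN, and 4 members reached 100 CPM in each line. Per kb of exon, the highest level in parental ESCs was that of Zfp710, at 46.2 CPM per kb. Next came Zfp706, a factor of the exit from self-renewal, at 36.8 CPM per kb, Zfp740 at 31.9, Zfp990 at 18.8 and Zfp609, a partner of the cohesin loader NIPBL, at 16.9. Of these, only Zfp990 lies in a cluster, the one on chromosome 4. The study describes coverage of exons, but the deposited values fitted a scaling by the whole span of the gene. Whether reads in introns were counted was not tested, and such reads would raise genes with long introns in this order.

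Differences were tested on log2(CPM + 1) with limma over the 12915 genes that passed 1 CPM in 2 or more libraries, which included 149 members. A member was called at an adjusted p under 0.05, Benjamini-Hochberg over all genes tested. In total, 37 members were called in at least 1 of the 3 contrasts and 112 in none. The 37 are 24.8% of the members tested, against 40.3% of all genes tested. Both comparisons with parental ESCs use the same parental libraries.

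In ESC + H/F-PRAMEL7 ΔN, a small number of zinc finger genes were several-fold lower, among them Zfp951, which lies in no cluster, some genes of the chromosome 4 cluster and a neighbouring pair on chromosome 7. Relative to parental ESCs, 3 members were higher and 12 lower, 2.01% and 8.05% of the 149 tested. Over all genes tested, 6.24% were higher and 13.6% lower. The median log2 fold change was 0.00 for the members and -0.06 for all genes. After rescaling to the median ratio of each library, 4 members were higher and 9 lower, and the share over all genes was not counted. The medians were then 0.064 for the members and 0.019 for all genes.

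Zfp951, a KRAB zinc finger gene with 10 fingers on chromosome 5 from 104813169 to 104860070, had 19.3 and 12.1 CPM in parental ESCs, 17.6 and 18.7 CPM in ESC + H/F-PRAMEL7 WT, and 0.903 and 1.43 CPM in ESC + H/F-PRAMEL7 ΔN. Both ΔN libraries were far below the other 4, with 18 and 27 reads. The mean was 15.7 ± 5.09 CPM (SD, n = 2) in parental ESCs and 1.16 ± 0.369 (SD, n = 2) in ESC + H/F-PRAMEL7 ΔN, 13.5-fold lower, with a log2 fold change of -2.92 (standard error 0.22, adjusted p = 5.04e-05, limma). The 11 tested genes within 1 Mb of it that are no zinc finger genes had a median log2 fold change of -0.12, and Zfp951 shared no 100-base window with another gene.

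The pair Zfp772 and Zfp773 lies on chromosome 7 beside Zfp954, on 95 kb in all, and each of these genes held 8 fingers. Zfp773 had 5.26 and 6.40 CPM in the parental libraries, 2.94 and 2.48 in ESC + H/F-PRAMEL7 WT, and 1.05 and 1.27 in ESC + H/F-PRAMEL7 ΔN. The 3 lines did not overlap, and Zfp773 fell in both derived lines, by 0.88 on the log2 scale in ESC + H/F-PRAMEL7 WT (adjusted p = 0.00776, limma) and by 1.66 in ESC + H/F-PRAMEL7 ΔN (adjusted p = 0.000382, limma). Zfp772 had 5.01 and 3.85 CPM in the parental libraries, 5.16 and 6.22 in ESC + H/F-PRAMEL7 WT, and 1.15 and 1.48 in ESC + H/F-PRAMEL7 ΔN. The 3 lines did not overlap here either, and the ΔN libraries were the lowest, with a log2 fold change of -1.22 over parental ESCs (standard error 0.18, adjusted p = 0.00218, limma). In ESC + H/F-PRAMEL7 WT it was 0.31 (adjusted p = 0.242, limma). Zfp954, the third gene of the run, stayed between 11.1 and 13.9 CPM in all 6 libraries and was not called in any contrast. The log2 fold change of Zfp954 in ESC + H/F-PRAMEL7 ΔN was 0.04 (adjusted p = 0.879, limma).

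On chromosome 4, Zfp981, Zfp978, Zfp600, Zfp989 and Zfp993 were lower in ESC + H/F-PRAMEL7 ΔN. This cluster is known as a source of KRAB repressors of ETn and other retroelements. Zfp981 had 34.7 and 22.4 CPM in the parental libraries, 22.8 and 24.8 in ESC + H/F-PRAMEL7 WT, and 8.08 and 9.71 in ESC + H/F-PRAMEL7 ΔN. The ΔN libraries were below all others, and the log2 fold change over parental ESCs was -1.55 (standard error 0.19, adjusted p = 0.000801, limma). Zfp600 had 17.8 and 10.2 CPM in the parental libraries, 16.1 and 16.1 in ESC + H/F-PRAMEL7 WT, and 5.32 and 5.81 in ESC + H/F-PRAMEL7 ΔN, with a log2 fold change of -1.15 (standard error 0.21, adjusted p = 0.00589, limma). Zfp978 had 15.0 and 10.5 CPM, then 10.3 and 10.3, then 3.31 and 6.18 in the same order, with a log2 fold change of -1.29 (standard error 0.24, adjusted p = 0.00597, limma). The ΔN libraries were the lowest for both genes. Reads of this cluster are hard to assign: Zfp600 shared 68.5% of its windows with another gene, most with the gene annotated as Rex2, Zfp978 shared 56.0% and Zfp981 13.0%. Zfp993 and Zfp989, both below 5 CPM, fell by 0.68 and 0.76 on the log2 scale and shared 71.9% and 46.5%.

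The loss did not extend over the whole cluster on chromosome 4. The 17 members together had 395.4 and 207.6 CPM in the parental libraries, 249.7 and 248.1 in ESC + H/F-PRAMEL7 WT, and 200.2 and 315.3 in ESC + H/F-PRAMEL7 ΔN, so that these sums overlapped between lines. The median log2 fold change of the 17 in ESC + H/F-PRAMEL7 ΔN was -0.05, and the other 12 were not called. Zfp986 was the member of the cluster with the highest log2 fold change in that line, 0.42 (adjusted p = 0.284, limma).

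**Figure D1:**
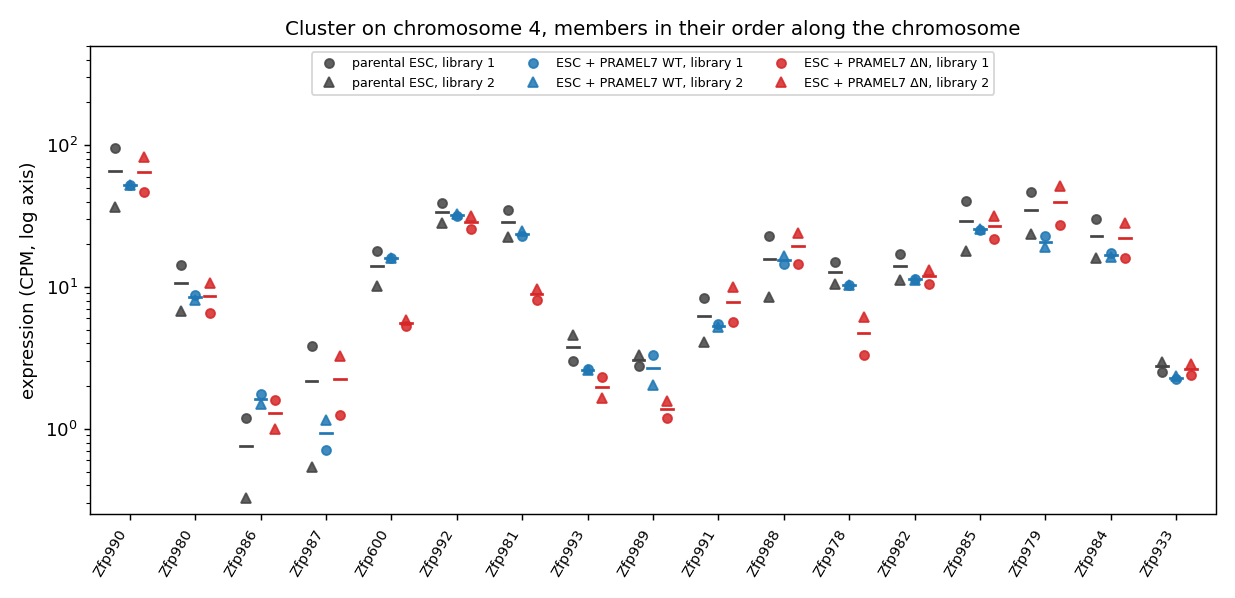
Expression of the 17 members of the chromosome 4 cluster, in their order along the chromosome, in CPM on a log axis; circles and triangles are libraries 1 and 2 of each line and short lines their mean. Zfp600, Zfp981 and Zfp978 are low in both ESC + H/F-PRAMEL7 ΔN libraries, while most others vary between the libraries of parental ESCs and of ESC + H/F-PRAMEL7 ΔN.

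The promoters of these genes are shown because they let genes that fell be set beside genes of the same cluster that did not pass the test. For Zfp951, which lies in no cluster, no such gene is shown. Each runs from 250 bases before to 50 bases after a start site of RefSeq (GRCm38.p6), 5′ to 3′ on the strand of the gene, with CG dinucleotides in capitals. Of the 154 members, 131 had an entry. Those shown were picked by no set rule and with their calls known. In the chromosome 4 cluster, Zfp978, Zfp989 and Zfp993, also lower, are left out, as are all uncalled members but Zfp979. Zfp951 is at chr5:104860019-104860318 (minus strand), Zfp772 at chr7:7209949-7210248 (minus), Zfp773 at chr7:7136706-7137005 (minus), Zfp954, not called, at chr7:7121427-7121726 (minus), Zfp600 at chr4:146156577-146156876 (plus), Zfp981 at chr4:146514670-146514969 (plus) and Zfp979, not called, at chr4:147642459-147642758 (minus). The start site of Zfp981 used here lies 12893 bases from the 5′ end of the gene in GENCODE, whereas those of the others are at most 12 bases from it.
Zfp951: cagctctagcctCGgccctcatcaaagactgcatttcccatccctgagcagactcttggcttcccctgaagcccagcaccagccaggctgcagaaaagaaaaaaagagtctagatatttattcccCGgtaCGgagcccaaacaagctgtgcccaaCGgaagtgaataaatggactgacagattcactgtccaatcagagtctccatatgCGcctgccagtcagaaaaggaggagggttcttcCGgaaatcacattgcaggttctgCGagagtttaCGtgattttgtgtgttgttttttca
Zfp772: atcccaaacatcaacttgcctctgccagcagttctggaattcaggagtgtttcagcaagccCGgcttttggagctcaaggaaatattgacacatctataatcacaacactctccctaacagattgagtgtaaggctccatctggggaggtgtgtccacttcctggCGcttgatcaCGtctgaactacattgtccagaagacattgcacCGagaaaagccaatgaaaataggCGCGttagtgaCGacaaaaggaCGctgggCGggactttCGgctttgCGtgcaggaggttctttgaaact
Zfp773: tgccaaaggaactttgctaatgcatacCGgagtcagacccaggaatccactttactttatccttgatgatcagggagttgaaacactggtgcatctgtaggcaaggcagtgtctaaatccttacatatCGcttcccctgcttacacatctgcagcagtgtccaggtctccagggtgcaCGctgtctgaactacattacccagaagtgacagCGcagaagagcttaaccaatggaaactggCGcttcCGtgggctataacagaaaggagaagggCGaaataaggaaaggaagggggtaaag
Zfp954: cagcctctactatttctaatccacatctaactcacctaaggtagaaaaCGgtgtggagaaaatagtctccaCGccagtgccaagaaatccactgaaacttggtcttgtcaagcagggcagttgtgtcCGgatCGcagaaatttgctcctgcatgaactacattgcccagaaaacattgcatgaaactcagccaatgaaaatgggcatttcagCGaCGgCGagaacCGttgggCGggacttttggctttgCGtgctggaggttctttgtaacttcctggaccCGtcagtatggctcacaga
Zfp600: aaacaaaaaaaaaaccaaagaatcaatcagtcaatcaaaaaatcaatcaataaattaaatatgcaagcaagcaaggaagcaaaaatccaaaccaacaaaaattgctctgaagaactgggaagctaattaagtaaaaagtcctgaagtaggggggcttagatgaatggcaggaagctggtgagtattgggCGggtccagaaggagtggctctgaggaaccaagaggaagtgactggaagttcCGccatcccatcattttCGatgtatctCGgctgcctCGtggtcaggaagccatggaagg
Zfp981: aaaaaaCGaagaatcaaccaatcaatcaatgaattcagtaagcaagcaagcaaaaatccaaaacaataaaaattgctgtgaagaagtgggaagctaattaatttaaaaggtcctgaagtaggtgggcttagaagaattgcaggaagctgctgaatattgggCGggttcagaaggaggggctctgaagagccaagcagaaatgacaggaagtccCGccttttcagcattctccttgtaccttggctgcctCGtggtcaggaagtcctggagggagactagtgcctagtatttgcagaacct
Zfp979: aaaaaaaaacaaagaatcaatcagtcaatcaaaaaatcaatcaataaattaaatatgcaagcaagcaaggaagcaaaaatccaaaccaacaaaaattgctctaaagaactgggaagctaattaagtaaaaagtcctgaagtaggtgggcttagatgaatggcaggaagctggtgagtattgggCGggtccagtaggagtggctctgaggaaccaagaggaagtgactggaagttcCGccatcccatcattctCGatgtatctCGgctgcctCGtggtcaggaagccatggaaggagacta

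Of the chromosome 4 cluster, 3 promoters were aligned, of which 1 pair was nearly identical. The promoter of Zfp600 was identical to that of Zfp979 at 94.8% of 306 aligned positions, although Zfp600 was called lower in ESC + H/F-PRAMEL7 ΔN and Zfp979, whose parental libraries had 46.6 and 23.6 CPM and whose ΔN libraries had 27.5 and 51.7 CPM, was not (adjusted p = 0.738, limma). Zfp600 and Zfp981 were 72.3% identical, Zfp981 and Zfp979 74.9%, and Zfp772 and Zfp773 53.2%. The promoter of Zfp600 held 5 CG, a number that 62.0% of all promoters in the table reach or exceed, and that of Zfp951 held 8, which 48.6% reach. Over the 10 members lower in ESC + H/F-PRAMEL7 ΔN that had a promoter in the table, the median was 6 CG, against 10 over the 12 lower in ESC + H/F-PRAMEL7 WT, 11 over 95 members called in no contrast and 7 over all 32851 promoters. This is a description of the windows and was not tested.

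The other members lower in ESC + H/F-PRAMEL7 ΔN changed less. Zfp652, which binds the corepressor CBFA2T3, had 82.0 and 94.4 CPM in the parental libraries, 64.5 and 61.7 in ESC + H/F-PRAMEL7 WT, and 56.8 and 57.2 in ESC + H/F-PRAMEL7 ΔN. It was lower in both derived lines, with log2 fold changes of -0.47 and -0.62, and it lies on chromosome 11, whose medians are given above. Zfp710, Zfp606 and Zfp821, named here together with Zfp652, Zfp989 and Zfp993 after their values were seen, had log2 fold changes of -0.53, -0.54 and -0.54. The call of Zfp710 was kept in only 1 of the 6 fits that leave out a library, with adjusted p between 9.23e-06 and 0.227 over all alternatives. With the median of each chromosome set to 0, Zfp652 was not called in either line, with log2 fold changes of -0.10 and -0.31.

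Higher in ESC + H/F-PRAMEL7 ΔN were 3 members, all on chromosome 6, or 33.3% of the 9 tested members there against 30.7% of all 603 tested genes of that chromosome. Zfp637 had 11.7 and 12.4 CPM in the parental libraries, 10.0 and 11.6 in ESC + H/F-PRAMEL7 WT, and 19.4 and 18.1 in ESC + H/F-PRAMEL7 ΔN, with a log2 fold change of 0.60 over parental ESCs (standard error 0.13, adjusted p = 0.0131, limma). The 6 tested genes near Zfp637 had a median log2 fold change of 0.31 in the same contrast. With the median of each chromosome set to 0, the log2 fold change was 0.52 (adjusted p = 0.0253, limma). Of the 15 calls in ESC + H/F-PRAMEL7 ΔN over parental ESCs, those of Zfp951, Zfp773, Zfp981, Zfp772 and Zfp652 were kept without any one library. The other 10 were lost without library 1 of ESC + H/F-PRAMEL7 ΔN, where Zfp600 had a log2 fold change of -1.10 and Zfp978 of -0.92.

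Decreases of single zinc finger genes of up to 2.24-fold in ESC + H/F-PRAMEL7 WT stood beside increases of a few, 3 of them on chromosome 6. Relative to parental ESCs, 6 members were higher and 13 lower in that line, 4.03% and 8.72% of those tested, below the 8.71% and 16.3% of all genes. After rescaling to the median ratio of each library, 9 were higher and 9 lower, and the share over all genes was not counted. The medians were then -0.085 for the members and 0.012 for all genes. Without rescaling, the median log2 fold change of the members was -0.17, against -0.08 for all genes. For the 3166 tested genes with a mean level in the middle range of the members, it was -0.14. A value below 0 was found in 111 of 149 members, in 7662 of all 12915 genes and in 1992 of those 3166. In ESC + H/F-PRAMEL7 ΔN over parental ESCs, the median of these 3166 genes was -0.1. The members were not tested against these genes.

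Among members higher than in parental ESCs, only Zfp777 in ESC + H/F-PRAMEL7 WT kept its call in every alternative. It had 22.0 and 23.2 CPM in the parental libraries, 42.5 and 45.5 in ESC + H/F-PRAMEL7 WT, and 36.1 and 32.5 in ESC + H/F-PRAMEL7 ΔN. None of the lines overlapped, and the log2 fold change over parental ESCs was 0.93 in ESC + H/F-PRAMEL7 WT (standard error 0.11, adjusted p = 0.00105, limma) and 0.58 in ESC + H/F-PRAMEL7 ΔN (standard error 0.11, adjusted p = 0.00605, limma). Its neighbour Zfp746 (PARIS, a repressor of Ppargc1a) had 24.9 and 27.9 CPM in the parental libraries, 32.7 and 36.1 in ESC + H/F-PRAMEL7 WT, and 39.9 and 36.3 in ESC + H/F-PRAMEL7 ΔN. Parental ESCs were lowest, and both log2 fold changes passed, 0.37 (adjusted p = 0.0417, limma) and 0.52 (adjusted p = 0.0131, limma). The direction of Zfp777 in ESC + H/F-PRAMEL7 WT was opposite to that of the chromosome 6 median, and with chromosome medians set to 0 its log2 fold change was 1.23.

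Zfp775, a gene of 11 fingers on the same chromosome, differed between the derived lines. It had 7.74 and 7.97 CPM in the parental libraries, 14.3 and 12.8 in ESC + H/F-PRAMEL7 WT, and 5.97 and 5.01 in ESC + H/F-PRAMEL7 ΔN. The WT libraries were the highest and the ΔN libraries the lowest, with log2 fold changes over parental ESCs of 0.71 (adjusted p = 0.0091, limma) and -0.45 (adjusted p = 0.0597, limma).

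Outside chromosome 6, Zfp651, also known as Zbtb47, had 2.37 and 2.12 CPM in the parental libraries, 4.45 and 5.95 in ESC + H/F-PRAMEL7 WT, and 2.56 and 2.64 in ESC + H/F-PRAMEL7 ΔN. The WT libraries were the highest, with a log2 fold change of 0.93 (standard error 0.18, adjusted p = 0.00671, limma). Zfp704 had 36.9 and 47.1 CPM in the parental libraries, 61.0 and 57.0 in ESC + H/F-PRAMEL7 WT, and 50.1 and 51.4 in ESC + H/F-PRAMEL7 ΔN, with a log2 fold change of 0.49 in ESC + H/F-PRAMEL7 WT (adjusted p = 0.0192, limma). Zfp827, which recruits the NuRD complex to telomeres, had 5.21 and 3.63 CPM in the parental libraries, 6.99 and 7.54 in ESC + H/F-PRAMEL7 WT, and 7.38 and 5.54 in ESC + H/F-PRAMEL7 ΔN. It was higher in ESC + H/F-PRAMEL7 WT by a log2 fold change of 0.62 (adjusted p = 0.0416, limma), a call kept in only 1 of the 6 fits that leave out a library.

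Among the members lower in ESC + H/F-PRAMEL7 WT, Zfp638 and Zfp941 kept their calls in every alternative. Zfp638 is a large matrix protein without the canonical finger letters that silences unintegrated retroviral DNA with the HUSH complex. Zfp638 had 67.8 and 60.1 CPM in the parental libraries, 30.7 and 35.5 in ESC + H/F-PRAMEL7 WT, and 48.7 and 60.5 in ESC + H/F-PRAMEL7 ΔN. The WT libraries were the lowest, and the mean of 33.1 ± 3.38 CPM (SD, n = 2) was 1.93-fold below that of parental ESCs (log2 fold change -0.93, standard error 0.13, adjusted p = 0.00192, limma). Zfp638 lies on chromosome 6, and the 25 tested genes around it had a median log2 fold change of -0.57 in the same contrast. With chromosome medians set to 0, the value of Zfp638 was -0.63 (adjusted p = 0.00785, limma).

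Zfp869, a KRAB gene of 12 fingers on chromosome 8, had 7.43 and 5.80 CPM in the parental libraries, 3.04 and 2.86 in ESC + H/F-PRAMEL7 WT, and 7.38 and 8.08 in ESC + H/F-PRAMEL7 ΔN. The WT libraries stood alone, with a log2 fold change of -0.94 (standard error 0.16, adjusted p = 0.00471, limma), while the 41 tested neighbours had a median of 0.11. Zfp941, on chromosome 7, had 14.7 and 16.3 CPM in the parental libraries, 8.61 and 8.48 in ESC + H/F-PRAMEL7 WT, and 12.9 and 14.1 in ESC + H/F-PRAMEL7 ΔN (log2 fold change in ESC + H/F-PRAMEL7 WT -0.79, standard error 0.13, adjusted p = 0.00406, limma). Zfp867, on chromosome 11, had 8.36 and 8.24 CPM, then 3.95 and 4.51, then 6.88 and 7.87 in the same order. For both genes the WT libraries were below all others. The log2 fold change of Zfp867 was -0.83 (adjusted p = 0.00552, limma), and it was -0.46 (adjusted p = 0.0528, limma) with chromosome medians set to 0.

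Zfp609, the partner of NIPBL, had 124.9 and 154.2 CPM in the parental libraries, 96.2 and 88.5 in ESC + H/F-PRAMEL7 WT, and 112.6 and 105.4 in ESC + H/F-PRAMEL7 ΔN, with a log2 fold change of -0.58 in ESC + H/F-PRAMEL7 WT (adjusted p = 0.00675, limma). Zfp644, which guides the H3K9 methyltransferases G9a and GLP, had a log2 fold change of -0.40 (adjusted p = 0.0338, limma). The KRAB genes Zfp661, Zfp715, Zfp871, Zfp790 and Zfp940, named after their values were seen, fell by 0.49 to 0.77 on the log2 scale. Of the 19 calls in ESC + H/F-PRAMEL7 WT over parental ESCs, those of Zfp777, Zfp638 and Zfp941 were kept without any one library, and the other 16 were lost without library 1 or library 2 of ESC + H/F-PRAMEL7 WT, with their direction kept.

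**Figure D2:**
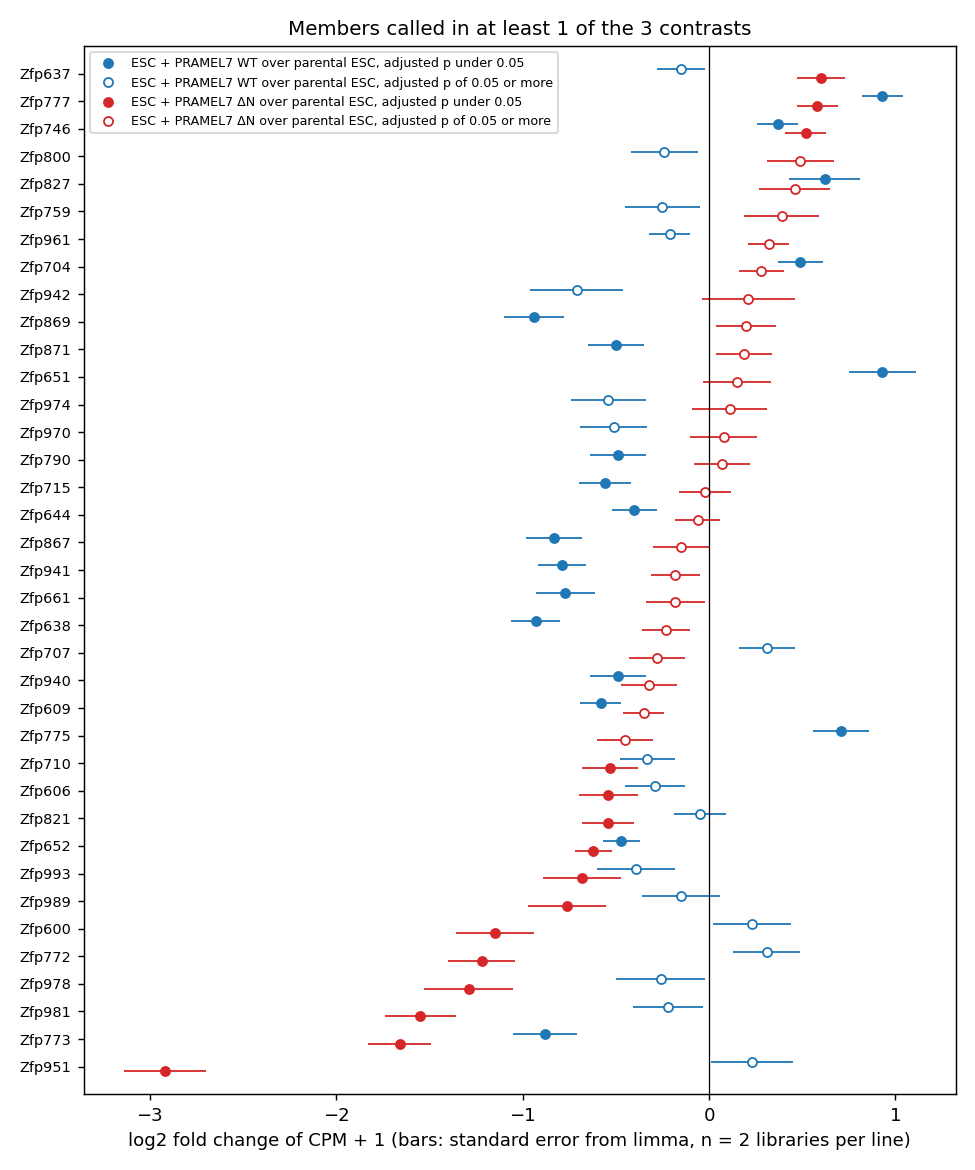
Log2 fold change over parental ESCs of the 37 members called in at least 1 contrast, in ESC + H/F-PRAMEL7 WT (blue) and ESC + H/F-PRAMEL7 ΔN (red); bars are standard errors and filled points have an adjusted p under 0.05. Zfp951, at -2.92 in ESC + H/F-PRAMEL7 ΔN and 0.23 in ESC + H/F-PRAMEL7 WT, lies farthest from 0, and Zfp746, Zfp777, Zfp652 and Zfp773 are filled in both lines.

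Set directly against each other, the derived lines differed in 26 members. In ESC + H/F-PRAMEL7 WT over ESC + H/F-PRAMEL7 ΔN, 11 members were higher and 15 lower, 7.38% and 10.1%, against 10.9% and 9.44% of all genes. The parental values cancel in this contrast, but the parental libraries enter the estimate of the spread: without them, or without either one, 31 members were lower. The median log2 fold change was -0.14 for the members, -0.02 for all genes and -0.04 for the 3166 genes of similar level. Below 0 were 102 of 149 members, 6721 of all 12915 genes and 1690 of those 3166.

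In ESC + H/F-PRAMEL7 ΔN, 12 members were lower than in parental ESCs. Of these, 7 were among the 11 higher in ESC + H/F-PRAMEL7 WT than in ESC + H/F-PRAMEL7 ΔN. The contrasts share the ΔN libraries, and the same overlap over all genes was not counted. The log2 fold change was 3.16 for Zfp951 (standard error 0.22, adjusted p = 2.72e-05, limma), or 15.6-fold in mean CPM. It was 1.53 for Zfp772 (adjusted p = 0.000683, limma), 1.38 for Zfp600 (adjusted p = 0.00236, limma), 1.33 for Zfp981 (adjusted p = 0.00159, limma) and 1.17 for Zfp775 (adjusted p = 0.000852, limma). In these genes, both libraries of ESC + H/F-PRAMEL7 WT were above both of ESC + H/F-PRAMEL7 ΔN, and none of these calls was lost when a library was left out. Also higher were Zfp978, Zfp773, Zfp651, Zfp707, Zfp821 and Zfp777, with log2 fold changes from 1.02 down to 0.35, of which Zfp707 and Zfp821 were named after their values were seen. Each of these lost its call without at least 1 library of the derived lines.

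Lower in ESC + H/F-PRAMEL7 WT than in ESC + H/F-PRAMEL7 ΔN, the largest differences were those of Zfp869, with -1.14 (standard error 0.16, adjusted p = 0.00162, limma), and Zfp942, a KRAB gene of 11 fingers on chromosome 17. Zfp942 had 1.97 and 1.87 CPM in ESC + H/F-PRAMEL7 WT, 3.71 and 5.49 in ESC + H/F-PRAMEL7 ΔN, and 5.11 and 2.77 in parental ESCs. Its log2 fold change was -0.92 (standard error 0.25, adjusted p = 0.0282, limma), a call that was lost without any one of the 4 libraries of the derived lines. Zfp637 (-0.75), Zfp638 (-0.70) and Zfp867 (-0.68) followed. For Zfp637 and Zfp638, on chromosome 6, the values were -0.37 and -0.33, with adjusted p = 0.0864 and 0.106 from limma, once chromosome medians were set to 0. Zfp961, a KRAB gene known to recognise a primer binding site of retroviruses, had 61.3 and 56.6 CPM in the parental libraries, 49.4 and 52.5 in ESC + H/F-PRAMEL7 WT, and 67.0 and 81.4 in ESC + H/F-PRAMEL7 ΔN. Parental ESCs lay between the derived lines, which differed by a log2 fold change of -0.53 (adjusted p = 0.0113, limma). Of the 15 lower members, only Zfp869 kept its call without any one library.

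**Figure D3:**
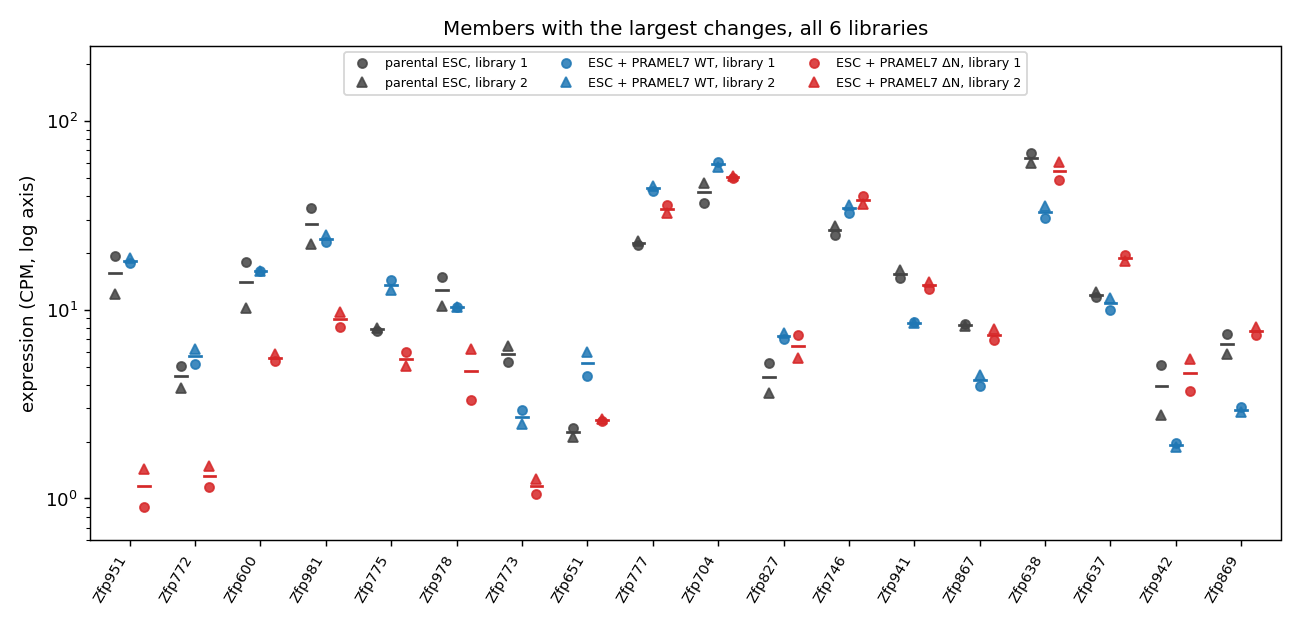
Expression in all 6 libraries of the 18 members with the largest called changes, in CPM on a log axis, ordered by the log2 fold change of ESC + H/F-PRAMEL7 WT over ESC + H/F-PRAMEL7 ΔN; circles and triangles are libraries 1 and 2 and short lines the mean of a line. On the left, Zfp951, Zfp772, Zfp600 and Zfp981 are low only in ESC + H/F-PRAMEL7 ΔN (red), and on the right Zfp869 is low only in ESC + H/F-PRAMEL7 WT (blue).

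No member was called higher in one derived line and lower in the other when each was compared with parental ESCs. Shared calls were those of Zfp746 and Zfp777, higher in both, and Zfp652 and Zfp773, lower in both. These lists share their control libraries, so that the overlap is given as a count alone. When a library was left out, calls could be lost for Zfp746 in both derived lines and for Zfp777 in ESC + H/F-PRAMEL7 ΔN. The same held for Zfp652 and Zfp773 in ESC + H/F-PRAMEL7 WT.

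Calls were also counted by the KRAB pattern and by the number of fingers. Of the 94 tested with the pattern, 1 was higher and 8 lower in ESC + H/F-PRAMEL7 WT (1.06% and 8.51%), and 1 higher and 7 lower in ESC + H/F-PRAMEL7 ΔN (1.06% and 7.45%). Of the 55 tested without it, 5 rose and 5 fell in ESC + H/F-PRAMEL7 WT (9.09% each), and 2 rose and 5 fell in ESC + H/F-PRAMEL7 ΔN (3.64% and 9.09%). These 55 include the pseudogenes without a coding sequence, in which the pattern was not sought. Over all genes, the shares were 8.71% and 16.3% in ESC + H/F-PRAMEL7 WT, and 6.24% and 13.6% in ESC + H/F-PRAMEL7 ΔN. The medians in ESC + H/F-PRAMEL7 WT were -0.22 with the pattern and -0.06 without it, and in ESC + H/F-PRAMEL7 ΔN -0.01 and 0.00. Of the 76 tested members with at least the median of 11 fingers, 1.32% rose and 5.26% fell in ESC + H/F-PRAMEL7 WT, and 0.0% and 3.95% in ESC + H/F-PRAMEL7 ΔN. Of the 59 with fewer fingers, but at least 1, the shares were 6.78% and 11.9%, and 5.08% and 15.3%. These groups were not tested against each other.

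**Figure D4:**
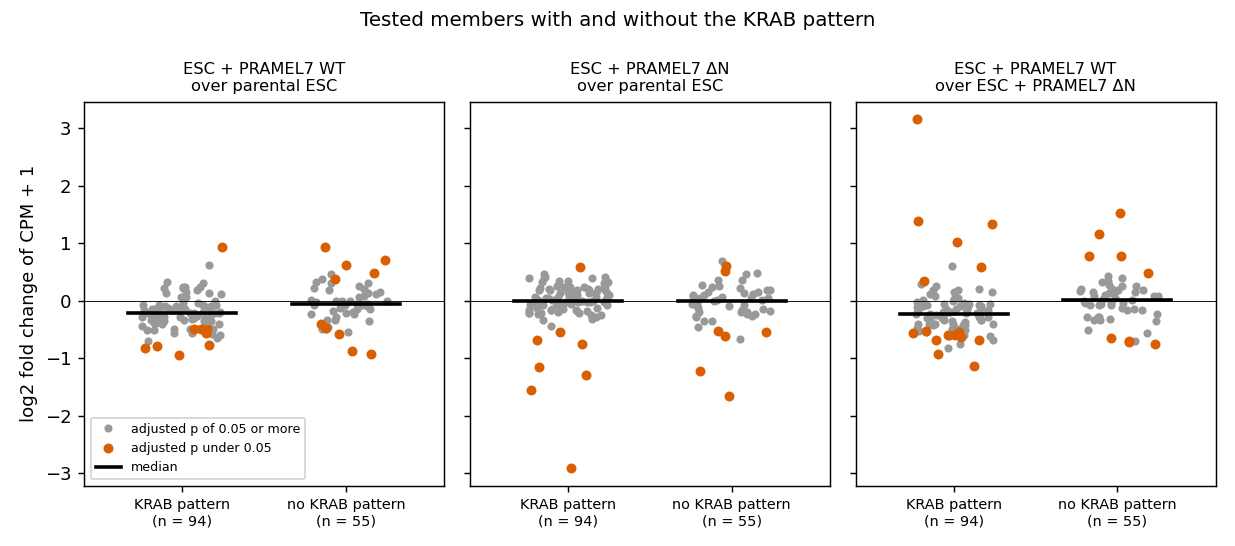
Log2 fold changes of the 149 tested members, split by the KRAB pattern, in the 3 contrasts; each point is a gene, orange points have an adjusted p under 0.05 and black lines are medians. With the pattern the median is -0.22 in ESC + H/F-PRAMEL7 WT over parental ESCs and -0.23 over ESC + H/F-PRAMEL7 ΔN, and without it -0.06 and 0.02. Pseudogenes without a coding sequence are placed in the group without the pattern.

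Clustered members also varied between libraries of the same line. The summed level of a cluster was higher in library 1 of parental ESCs than in library 2 for 11 of 14 clusters, with a median ratio of the larger to the smaller sum of 1.31 and a maximum of 1.97. In ESC + H/F-PRAMEL7 ΔN, library 2 was the higher for 12 of 14 clusters, with a median ratio of 1.19, and in ESC + H/F-PRAMEL7 WT the median ratio was 1.05. Over the 87 tested members in clusters, the median log2 ratio of library 1 to library 2 was 0.31 for parental ESCs and -0.20 for ESC + H/F-PRAMEL7 ΔN, whereas over all genes tested it was -0.02 and 0.00. For the 62 tested members outside clusters it was 0.02 and -0.16.

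Single members showed this strongly. Zfp990, the member of the chromosome 4 cluster with the highest level per kb, had 95.3 and 36.4 CPM in the parental libraries, 52.2 and 52.4 in ESC + H/F-PRAMEL7 WT, and 46.8 and 81.9 in ESC + H/F-PRAMEL7 ΔN. The pseudogene Zfp640, on chromosome 13, had 9.29 and 1.41 CPM, then 3.95 and 3.91, then 4.92 and 9.87 in the same order. In both, the libraries of parental ESCs lay on either side of those of ESC + H/F-PRAMEL7 WT, and neither gene was called. The median log2 fold change of the members moved when either parental library was left out. Without library 1 of parental ESCs it was -0.049 in ESC + H/F-PRAMEL7 WT and 0.095 in ESC + H/F-PRAMEL7 ΔN. Without library 2 it was -0.265 and -0.105, against -0.172 and 0.001 with all libraries.

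**Figure D5:**
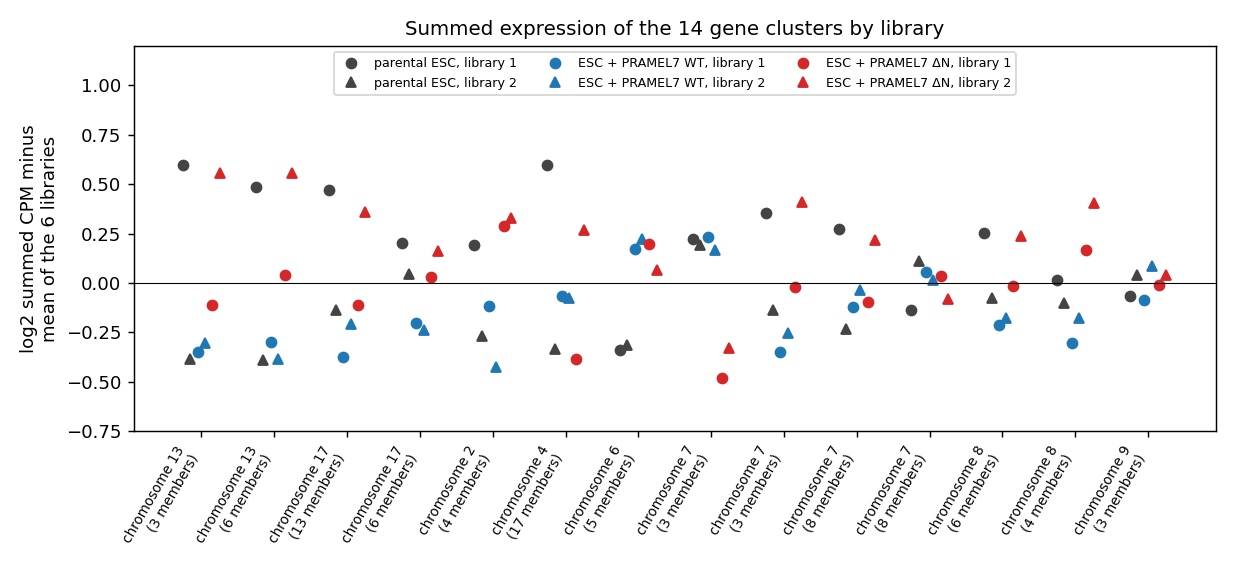
Summed CPM of the members of each of the 14 clusters, as log2 and relative to the mean of the 6 libraries, by library; circles and triangles are libraries 1 and 2. In most clusters library 1 of parental ESCs and library 2 of ESC + H/F-PRAMEL7 ΔN are the highest, and both libraries of ESC + H/F-PRAMEL7 WT (blue) lie close together; the cluster on chromosome 6 is lowest in parental ESCs, and that of 3 members with Zfp772 and Zfp773 is lowest in ESC + H/F-PRAMEL7 ΔN.

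By cluster, the calls were few. In ESC + H/F-PRAMEL7 ΔN the clusters with a lower member were the one on chromosome 4, with 5 of 17, and that of Zfp772 and Zfp773, with 2 of 3. In that line, 10.6% of all tested genes on chromosome 4 and 10.5% of those on chromosome 7 were lower. In ESC + H/F-PRAMEL7 WT no cluster had more than 1 lower member. Of the 87 tested members in clusters, 8.05% were lower in ESC + H/F-PRAMEL7 ΔN and 4.6% in ESC + H/F-PRAMEL7 WT, against 13.6% and 16.3% of all genes. The chromosome 17 cluster of 13 members had none in either comparison with parental ESCs, with a median log2 fold change of -0.43 in ESC + H/F-PRAMEL7 WT and -0.04 in ESC + H/F-PRAMEL7 ΔN. The 8 genes around Zfp771, Zfp668 and Zfp646 on chromosome 7 had no call in any contrast, and their sum was between 134.7 and 159.7 CPM. The same held for the 3 genes around Zfp809 on chromosome 9, whose sum was between 24.1 and 27.2 CPM.

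Of 17 members with a role known outside these data, 16 were tested, 7 (43.8%) were called in at least 1 contrast and 9 in none, beside 24.8% of all tested members and 40.3% of all genes called in at least 1. Zfp809, the KRAB repressor that recognises the proline primer binding site of murine leukaemia virus, had 15.4 and 15.0 CPM in the parental libraries, 16.1 and 17.0 in ESC + H/F-PRAMEL7 WT, and 16.8 and 16.8 in ESC + H/F-PRAMEL7 ΔN. All 6 libraries were close, with log2 fold changes of 0.12 (standard error 0.12, adjusted p = 0.501, limma) and 0.13 (standard error 0.12, adjusted p = 0.473, limma). Zfp819, a TRIM28 partner of pluripotent cells, had 20.4 and 14.2 CPM, then 19.2 and 18.9, then 14.5 and 14.1 in the same order, and was not called. Zfp622, a factor of the maturation of the large ribosomal subunit, stayed between 84.9 and 108.3 CPM, and Zfp706 between 158.3 and 208.1 CPM. Zfp687, a partner of ZMYND8, stayed between 83.5 and 96.5 CPM. Zfp830, needed in the early embryo, Zfp618, Zfp932 and Zfp982 were not called either. Zfp711, an X-linked partner of the demethylase PHF8, was below the level needed for the test, with 1.44 and 0.813 CPM in the parental libraries, 0.405 and 0.275 in ESC + H/F-PRAMEL7 WT, and 0.652 and 0.739 in ESC + H/F-PRAMEL7 ΔN.

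A list of 21 genes in and around the TRIM28 pathway had calls in both directions. The list also holds Zfp57, itself a zinc finger gene, and Uhrf1 and Dnmt1, genes of DNA methylation. Of the 21, 1 (Uhrf1) was higher and 3 lower in ESC + H/F-PRAMEL7 WT over parental ESCs. In ESC + H/F-PRAMEL7 ΔN, 5 were higher, among them Uhrf1 and Zfp57, and 1 was lower. These are 4.76% and 14.3% of the list in ESC + H/F-PRAMEL7 WT, against 8.71% and 16.3% of all genes, and 23.8% and 4.76% in ESC + H/F-PRAMEL7 ΔN, against 6.24% and 13.6%. Between the derived lines, 1 was higher and 5 lower in ESC + H/F-PRAMEL7 WT, 4.76% and 23.8%, against 10.9% and 9.44%. The median log2 fold changes over parental ESCs were -0.07 and -0.05, and -0.08 and -0.06 for all genes. Trim28 itself, the common corepressor, had 3717.9 and 3298.9 CPM in the parental libraries, 4032.5 and 3862.3 in ESC + H/F-PRAMEL7 WT, and 3554.6 and 3294.1 in ESC + H/F-PRAMEL7 ΔN, and did not pass the test (adjusted p = 0.226 and 0.853, limma). Setdb1, the methyltransferase it recruits, had log2 fold changes of -0.09 and -0.20 and did not pass either. Suv39h1, another H3K9 methyltransferase, had 20.9 and 21.3 CPM in the parental libraries, 10.8 and 9.85 in ESC + H/F-PRAMEL7 WT, and 28.3 and 25.8 in ESC + H/F-PRAMEL7 ΔN. The lines did not overlap, and the log2 fold change of Suv39h1 was -0.96 in ESC + H/F-PRAMEL7 WT (adjusted p = 0.00137, limma). Suv39h1 lies on chromosome X, where 23.8% of all tested genes were lower in that line. Cbx1, an HP1 protein on chromosome 11, was lower in both lines by log2 fold changes of -0.69 and -0.44, the latter lost with chromosome medians set to 0. Sumo2, also on chromosome 11, was lower in ESC + H/F-PRAMEL7 WT, with a log2 fold change of -0.62, and was not called with chromosome medians set to 0, at -0.25 (adjusted p = 0.308, limma). Uhrf1, a partner of the maintenance methyltransferase, was higher in both derived lines, at 0.37 and 0.37. Both calls were lost without either library of the derived line compared, at values from 0.36 to 0.39. The study reports that Uhrf1 mRNA did not change significantly in ESC + H/F-PRAMEL7 WT. Its selection of genes also set a limit of 0.58 on the log2 fold change, which the calls here did not. Cbx3, Cbx5, Smarcad1 and the imprint factor Zfp57 were higher in ESC + H/F-PRAMEL7 ΔN. Cbx3 and Smarcad1 lie on chromosome 6, where 30.7% of all tested genes were higher in that line. With chromosome medians set to 0, Cbx3 was still called, at 0.39 (adjusted p = 0.0478, limma). Smarcad1 was then not called, at 0.36 (adjusted p = 0.0756, limma). Of the 6 fits that leave out a library, 2 kept the ΔN call of Cbx3 and 1 that of Smarcad1. Those of Cbx5 and Zfp57 were kept in 4 of the 6. The call of Cbx3 was kept in 7 of the 11 other alternatives.

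The lower range, Zfp1 to Zfp599, had a median near that of Zfp600 to Zfp999 in ESC + H/F-PRAMEL7 WT and larger shares of called genes there. Of its 177 tested genes, 11 rose and 26 fell in ESC + H/F-PRAMEL7 WT over parental ESCs, 6.21% and 14.7% against 4.03% and 8.72%, with a median log2 fold change of -0.16 against -0.17 for Zfp600 to Zfp999. In ESC + H/F-PRAMEL7 ΔN, 6 were higher and 7 lower, 3.39% and 3.95% against 2.01% and 8.05%, with a median of -0.02 against 0.00. The ranges were not tested against each other.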

How the data were processed

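The members and lists were chosen with earlier results of these data known. By the study's methods, SortMeRNA took out reads of ribosomal RNA, Trimmomatic trimmed the rest, STAR aligned them to mm10, and a pipeline of the authors turned coverage of exons into RPKM. The submitters' processing notes list Bowtie2 2.3.4.3, Subread 1.4.6-p4 and deepTools 3.2.1 without a role. The authors deposited 1 table of RPKM, and tables of their own comparisons (fold changes, p-values and mean values), which were not used.

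The deposited RPKM, multiplied by the whole span of the gene (GENCODE vM21), came to whole reads, give or take 0.1, in 98.0 to 98.4% of values up to 20 reads, against 14.4 to 15.9% with exon length. They were therefore converted to CPM with 1 constant. Of 50978 rows, 47941 genes were matched. Zfp935 had 2 rows, of which the one with whole reads was kept.

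One fit held all 6 libraries (limma 3.58.1, trend on, R 4.3.3), on log2(CPM + 1), which understates the change of low genes. Tables and figures used python 3.11.15. The fit was tested on simulated data. Precision is limited by 2 libraries per line.

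Named members were, per contrast and direction, up to 5 with the largest change among those called, with a mean of at least 3 CPM and libraries that did not overlap. Added to these were the 5 highest per kb of exon in parental ESCs, members with known roles and the extremes of each cluster per contrast (described where a result turned on them). A list of 21 genes in and around the TRIM28 pathway was also added. No protein table was used; KRAB letters (Tyr, then Arg, Lys or Gln, then Asp, Glu or Asn, then Val-Met; or Val-Met, any residue, Glu, then Asn or Thr, then Tyr, Phe or His) and fingers were sought in coding sequences. Alternatives were other pseudocounts, filters, scalings, fits and limits, voom on whole reads, RPKM without conversion, and leaving out each library.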

Additional observations from a re-analysis of the deposited data

Results flagged for a closer look

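For 10 members, the difference between ESC + H/F-PRAMEL7 WT and ESC + H/F-PRAMEL7 ΔN in their effect over parental ESCs passed the direct test (limma, adjusted over all genes) and was among the 5 largest in its direction. The parental values cancel in this difference. It was positive for Zfp951 (3.16 on the log2 scale), Zfp772 (1.53), Zfp600 (1.38), Zfp981 (1.33) and Zfp775 (1.17). It was negative for Zfp869 (-1.14), Zfp942 (-0.92), Zfp637 (-0.75), Zfp638 (-0.70) and Zfp867 (-0.68). Of these, Zfp637, Zfp638 and Zfp775 lie on chromosome 6, where the median over all tested genes was -0.39. No group here had the 4 libraries that a check for a single outlying library needs.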

How the results depend on the processing

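Of the 60 calls of members over the 3 contrasts, 13 were kept in every alternative and no fold change turned its sign. The 13 were those of Zfp951, Zfp772 and Zfp981 in ESC + H/F-PRAMEL7 ΔN over parental ESCs and between the derived lines, Zfp773 in ESC + H/F-PRAMEL7 ΔN, Zfp777, Zfp638 and Zfp941 in ESC + H/F-PRAMEL7 WT, and Zfp600, Zfp775 and Zfp869 between the derived lines. Counts are given below as higher and lower members. Without a filter they were 3 and 7 in ESC + H/F-PRAMEL7 WT over parental ESCs, 3 and 7 in ESC + H/F-PRAMEL7 ΔN over parental ESCs, and 5 and 5 between the derived lines, with more genes tested. With a filter of 10 CPM, the lower members were 8, 6 and 6, with fewer genes tested. With an added limit of 0.58 on the log2 fold change, 7 were lower in ESC + H/F-PRAMEL7 WT and 1 higher in ESC + H/F-PRAMEL7 ΔN, and with that limit and an unadjusted p under 0.05 also 1 was higher in ESC + H/F-PRAMEL7 ΔN. Fitting only the derived lines gave 31 lower between them; the cause was not tested. Leaving out each library in turn, with a lone library assumed to vary like the other lines, gave 1 to 17 higher and 4 to 42 lower in ESC + H/F-PRAMEL7 WT, 0 to 22 higher and 5 to 20 lower in ESC + H/F-PRAMEL7 ΔN, and 5 to 13 higher and 2 to 31 lower between the derived lines. The count of 0 (limma) was without library 1 of ESC + H/F-PRAMEL7 ΔN, where 7 members were higher at an unadjusted p under 0.05, and no other tool was run on those libraries. The other alternatives stayed within 1.5 times of the counts in the report. Calls over all genes were not counted for the alternatives, so these counts of members have no share of all genes beside them. Library numbers did not pair the samples: deviations from the line means correlated at 0.207, -0.25 and -0.103. A replicate block gave 5 and 11, 3 and 8, and 10 and 11, and the cause was not tested. Depth limits low members, of which 5 were not tested.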
